A study of Mus musculus with 17 samples.

Results

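Differentiation medium (DM) was compared with expansion medium (EM) in mouse lacrimal gland organoids of 2 clones labelled Pax6-KO. The comparison rests on 4 of the 17 libraries in the study, taken by their labels: labelled KO clones 1 and 2 in EM and the same clones in DM. Of the other libraries, 4 come from 2 clones labelled wild type (WT) in EM and DM, and 6 from uncloned wild-type organoids of lines 6, 7 and 8 in EM and DM. The last 3, gland tissue of those lines, are not described here. All organoids were grown in basement membrane extract, and polyadenylated RNA was read as counts per gene. The growth protocol states 7 days of EM for one arm, and 2 days of EM before 5 days of DM for the other. A 7 day exposure to either medium is stated for the clones in the text of the series, so how long they spent in DM is uncertain. Each labelled KO line is a single clone, and with n = 2 clones per label the tests measure the spread between these clones. The sources used here do not give the composition of the media, the change made in Pax6, or the strain, sex and age of the mice.

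The lacrimal gland makes the watery part of tears in acinar cells, passes it through ducts that adjust its salt content, and squeezes it out with contractile myoepithelial cells. Pax6 is a transcription factor that directs eye and lacrimal gland development. Expansion media for organoids usually hold factors that keep progenitor cells dividing, and differentiation media withdraw some of them. Signalling by TGF-beta and activin acts through SMAD proteins, which switch on matrix genes, cell cycle inhibitors and the pathway's own brakes.

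The targeted gene, Pax6 (ENSMUSG00000027168, chromosome 2, 105668900 to 105697364), was present in all of them. EM of labelled KO clones 1 and 2 gave 172 and 272 CPM, the usual count per gene scaled to a common library size, and DM gave 135 and 309 CPM. WT clones gave 245 and 276 CPM (EM) and 219 and 279.7 CPM (DM). The groups overlap, clone 2 lies above clone 1 in both media, and the medium did not shift Pax6 past the test (0.00 ± 0.39, adjusted p = 1). Values in this form are log2 fold changes of DM against EM with their SE and edgeR's Benjamini-Hochberg adjusted p over all tested genes, and a gene is called at an adjusted p under 0.05. A short sequence change would not show in a gene-level count, so this level gives no check of the labels, and every statement on the knockout below rests on the label alone.

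The 4 libraries held 18965633 to 19454717 counts, and all 8 clone libraries 18282059 to 22500534. Defining markers of epithelium were present in every labelled KO library, from Krt8 at 137 to 841 CPM to Krt5 at 3074 to 5325 CPM. Lacrimal acinar markers were low: Bhlha15 and Car6 stayed under 1 CPM, Aqp5 reached at most 1.51 CPM and Lpo 5.21 CPM. All 5 fibroblast markers, all 3 leukocyte markers and both fat cell markers stayed under 1 CPM, and Col1a2, Ptprc, Kdr and Adipoq had no counts, which allows up to 3 counts over the 4 libraries by counting error alone. The pericyte marker Rgs5 was the exception, at 2.17 and 0.313 CPM (EM) and 83.9 and 9.56 CPM (DM), where clone 1 alone stands far above the rest (5.22 ± 1.30, adjusted p = 0.0554, and adjusted p = 1.27e-04 with the clone as block). Pdgfrb, the other pericyte marker, reached at most 0.0505 CPM. On the first principal component of the 8 clone libraries, which holds 40.5% of the variance, labelled KO libraries lay at -0.449 and -3.99 in EM and at -68.7 and -66.9 in DM. WT libraries lay at 72.4 and 84.1 in EM and at -16.3 and -0.0917 in DM, so the labels differ along it as well as the media.

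In labelled KO clones 12 of 25 tested genes of the TGF-beta and activin pathway, 10 of 38 of matrix and adhesion and 10 of 30 chemokine, alarmin and NF-kB genes rose in DM. So did 3 of 9 contractile genes and 2 of 13 retinoid genes, both of them enzymes of retinoic acid synthesis. Falls were called for 12 of 25 genes of G2 and mitosis, 8 of 25 of G1 and DNA replication and 6 of 22 of ducts and ion transport. Of 14282 tested genes 706 rose (4.94%) and 487 fell (3.41%), 1193 in all (8.35%), and 694 of them changed at least 2-fold. The DM and EM libraries did not overlap for each of the 1193, as for 58.1% of all tested genes. Where media are said below not to overlap, this held for every call in labelled KO clones and adds nothing to it. With the clone as a block, a fit that sets each clone against itself, 1321 genes rose (9.25%) and 1017 fell (7.12%), and 1190 of the 1193 were among them. All 1193 kept their direction when any 1 of the 4 libraries was left out. Fewer passed the test then: 230 without DM of clone 1, 284 without DM of clone 2, 170 without EM of clone 1 and 82 without EM of clone 2. Of the 121 genes that were called and are named by rule, 16 passed with each library left out in turn. They are Csf2, Padi2, Acsbg1, Lgr6, Ggt5, Dynap, Klk1b27, Itpr2, Axin2, Inhba, Skil, Itgb6, Fn1, Jag1, Tslp and Timp1, and the calls of the others were lost without at least 1 library.

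**Figure D1:**
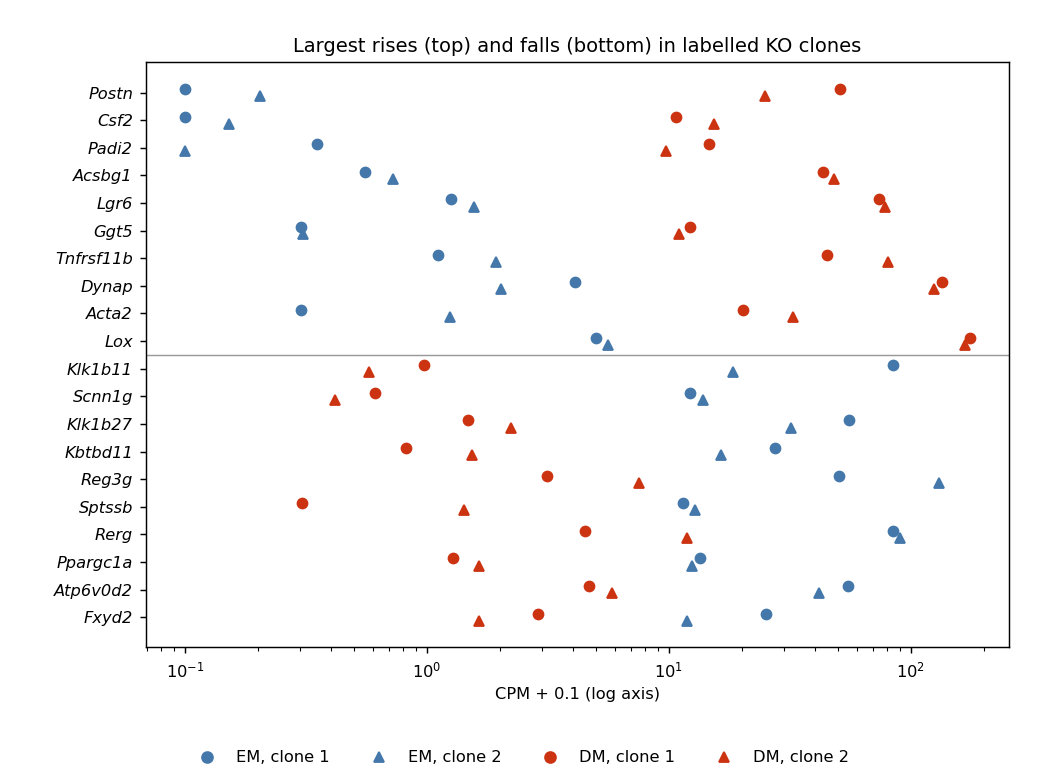
CPM + 0.1 on a log axis for the 10 genes with the largest rises and the 10 with the largest falls, with 1 point for each labelled KO library (circles clone 1, triangles clone 2, blue EM, red DM). For each of the 20 genes both DM points lie on the same side of both EM points, which the rule that chose them required.

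The 10 largest rises began at 0 to 5.48 CPM in EM. Csf2, the cytokine GM-CSF, stood at 0 and 0.0522 CPM (EM) and 10.6 and 15.3 CPM (DM), a ratio of 503 with an exact 95% interval for counting error of 89.8 to 19891 (adjusted p = 0.00429). Postn, which encodes the matrix protein periostin, stood at 0 and 0.104 CPM and then at 50.6 and 25.0 CPM, a ratio of 741 with an interval of 205 to 6122 (adjusted p = 0.0473). Both genes were detected at 1 to 2 counts in all of EM, so their ratios rest on those few counts. Acsbg1, an enzyme that activates very long chain fatty acids, went from 0.455 and 0.626 to 43.1 and 48.0 CPM (6.38 ± 0.36, adjusted p = 0.00160). Lgr6, an R-spondin receptor found on epithelial progenitors, went from 1.16 and 1.46 to 73.9 and 78.1 CPM (5.85 ± 0.34, adjusted p = 0.00160). Padi2, which converts arginine to citrulline in proteins, went from 0.253 and 0 to 14.5 and 9.67 CPM (6.49 ± 0.77, adjusted p = 0.00719). In these genes the DM values of both clones exceed the EM values many times over, and apart from Postn each call held without any 1 library. Lox, which cross-links collagen and elastin, went from 4.90 and 5.48 to 175 and 168 CPM (5.04 ± 0.65, adjusted p = 0.00980), with the clones almost level in each medium. Tnfrsf11b, the RANKL decoy osteoprotegerin (5.46 ± 1.02, adjusted p = 0.0321), the peptidase Ggt5 (5.77 ± 0.50, adjusted p = 0.00324) and Dynap (5.44 ± 0.49, adjusted p = 0.00370) complete the 10 with Acta2, described with the contractile genes. Without 1 library the adjusted p of Postn, Tnfrsf11b and Lox reached 0.225, 0.171 and 0.0881.

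The largest falls included kallikreins, ion transport proteins and metabolic regulators. Scnn1g, the gamma subunit of the epithelial sodium channel, went from 12.1 and 13.7 to 0.513 and 0.319 CPM (-4.93 ± 0.67, adjusted p = 0.0107). Klk1b27 went from 55.4 and 31.9 to 1.39 and 2.12 CPM (-4.63 ± 0.35, adjusted p = 0.00255) and Klk1b11 from 84.1 and 18.4 to 0.872 and 0.478 CPM (-6.23 ± 0.96, adjusted p = 0.0151). Both are glandular kallikreins, secreted proteases of a family of near-identical copies, so the value of either is uncertain. Reg3g, an antibacterial lectin, went from 50.2 and 131 to 3.03 and 7.44 CPM (-4.11 ± 0.80, adjusted p = 0.0280), with clone 2 above clone 1 in both media. Ppargc1a, a coactivator of mitochondrial genes, went from 13.4 and 12.4 to 1.18 and 1.54 CPM (-3.24 ± 0.42, adjusted p = 0.00962). Rerg, a small GTPase, fell from 84.5 and 90.2 to 4.41 and 11.8 CPM (-3.43 ± 0.49, adjusted p = 0.0121), and no DM value comes near an EM value. Kbtbd11 (-4.33 ± 0.54, adjusted p = 0.00868), the sphingolipid synthesis subunit Sptssb (-3.97 ± 0.95, adjusted p = 0.0490), the proton pump subunit Atp6v0d2 (-3.23 ± 0.59, adjusted p = 0.0244) and the sodium pump modulator Fxyd2 (-3.09 ± 0.62, adjusted p = 0.0311) complete the 10. The adjusted p of Sptssb and Reg3g reached 0.193 and 0.160 when 1 library was left out.

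Genes of the TGF-beta and activin pathway rose for 12 of 25 tested members and fell for none. Their median log2 fold change was 1.57, against 0.00 over all tested genes. Among ligands, Inhba, the subunit of activin A, stood at 109 and 98.5 CPM (EM) and 761 and 751 CPM (DM) (2.87 ± 0.20, adjusted p = 0.00210). Both clones responded almost alike, and Tgfb1, the main TGF-beta ligand, rose as well (0.58 ± 0.10, adjusted p = 0.0185). Itgb6, an integrin subunit that frees TGF-beta from its latent form, went from 23.3 and 33.3 to 93.6 and 98.4 CPM (1.76 ± 0.16, adjusted p = 0.00389). The receptors Tgfbr1 (0.09 ± 0.13, adjusted p = 0.737) and Tgfbr2 (-0.45 ± 0.18, adjusted p = 0.174) did not pass the test. Among the pathway's own inhibitors, Skil went from 113 and 100.2 to 254 and 282 CPM (1.33 ± 0.10, adjusted p = 0.00259) and Pmepa1 from 101 and 64.9 to 432 and 359 CPM (2.25 ± 0.26, adjusted p = 0.00685). Smad7, the inhibitory SMAD, went from 6.87 and 4.95 to 15.2 and 20.8 CPM (1.60 ± 0.25, adjusted p = 0.0159). For all 3 inhibitors both clones in DM lie above both in EM. Cdkn2b, a cyclin-dependent kinase inhibitor and a classical target, went from 54.0 and 54.7 to 117 and 142 CPM (1.26 ± 0.14, adjusted p = 0.00578). The other called members were Fn1, Tgfbi, Ccn2, Col4a1 and Postn. The list's calls numbered 8, 7, 5 and 4 without DM of clone 1, DM of clone 2, EM of clone 1 and EM of clone 2.

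The promoters of Axin2, Lgr6 and Inhba are shown because these 3 had the smallest p among the Wnt, TGF-beta and BMP lists. Each runs from 250 bases before to 50 after the RefSeq start on GRCm38.p6, in the gene's own direction, with matches to the searched motifs in capitals. Axin2 lies at chr11:108920099-108920398 on the plus strand, Lgr6 at chr1:135105227-135105526 on the minus strand and Inhba at chr13:16011601-16011900 on the plus strand.
Axin2: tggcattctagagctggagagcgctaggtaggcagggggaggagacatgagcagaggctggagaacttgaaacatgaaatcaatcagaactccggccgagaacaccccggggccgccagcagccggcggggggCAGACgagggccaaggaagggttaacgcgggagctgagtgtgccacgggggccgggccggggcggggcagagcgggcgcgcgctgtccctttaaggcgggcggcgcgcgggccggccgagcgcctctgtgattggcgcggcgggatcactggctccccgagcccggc
Lgr6: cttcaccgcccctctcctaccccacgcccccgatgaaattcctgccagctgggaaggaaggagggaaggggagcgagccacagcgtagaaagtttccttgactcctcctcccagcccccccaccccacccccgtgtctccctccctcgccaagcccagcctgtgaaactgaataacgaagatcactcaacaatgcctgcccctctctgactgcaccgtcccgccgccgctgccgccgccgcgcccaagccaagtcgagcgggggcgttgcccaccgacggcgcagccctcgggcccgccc
Inhba: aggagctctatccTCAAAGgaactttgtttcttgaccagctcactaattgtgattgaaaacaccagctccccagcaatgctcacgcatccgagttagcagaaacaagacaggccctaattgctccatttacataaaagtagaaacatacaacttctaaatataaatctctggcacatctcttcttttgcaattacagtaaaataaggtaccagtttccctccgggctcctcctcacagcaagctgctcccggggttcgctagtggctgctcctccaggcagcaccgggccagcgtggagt
Motifs searched on both strands were CTTTGA (TCF/LEF), CAGAC (SMAD), GGCGCC (BMP SMAD) and TGANTCA (AP-1), with N any base. Axin2 held CAGAC 117 bases before the start, Inhba held the reverse complement of CTTTGA 237 bases before it, and Lgr6 held none of the 4 in this window. No match overlapped another. Promoters were found for 10395 of the 14282 tested genes. CAGAC was in 47.6% of those, in 52.4% of the 531 promoters of genes that rose and in 47.1% of the 384 of genes that fell. CTTTGA was in 11.9%, 10.7% and 9.38%, GGCGCC in 21.0%, 21.5% and 22.7%, and TGANTCA in 5.39%, 7.91% and 6.77% of the same sets. These are counts of letters, not of bound sites.

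**Figure D2:**
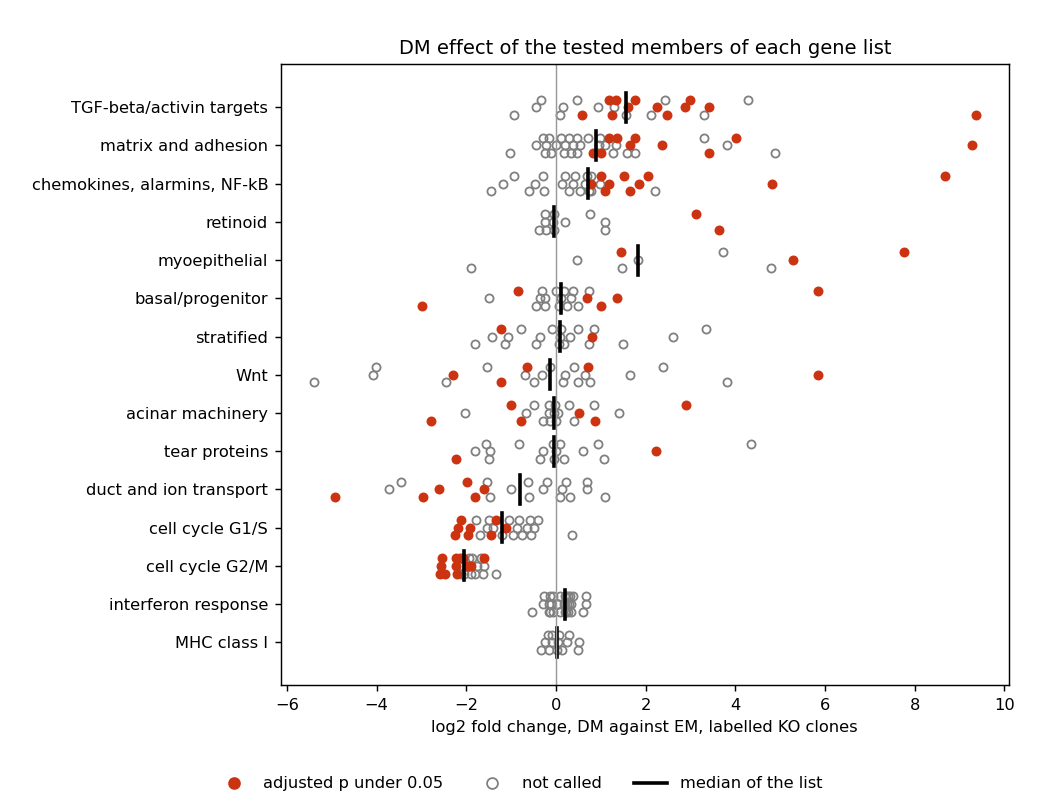
Log2 fold change of DM against EM in labelled KO clones (horizontal axis) for every tested member of 15 gene lists, 1 point per gene, with called genes in red and the list's median as a black bar. All 25 members of the G2/M list lie left of 0, and the TGF-beta/activin median lies at 1.57.

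Matrix and adhesion genes rose for 10 of 38 tested members and fell for none, with a median of 0.89. With the clone as block 17 rose and 1 fell. Fn1, which encodes fibronectin, stood at 25.9 and 60.4 CPM (EM) and 531 and 383 CPM (DM) (3.40 ± 0.44, adjusted p = 0.00980). Timp1, an inhibitor of matrix metalloproteinases, went from 2.93 and 2.09 to 48.1 and 33.0 CPM (4.01 ± 0.37, adjusted p = 0.00389). Col7a1, the anchoring fibril collagen under stratified epithelia, went from 5.35 and 4.69 to 16.7 and 15.1 CPM (1.66 ± 0.17, adjusted p = 0.00459), and Lama3, the alpha chain of epithelial laminin, from 161 and 143 to 408 and 369 CPM (1.35 ± 0.14, adjusted p = 0.00459). In each of these the media do not overlap, and in EM Fn1 was lower in clone 1 than in clone 2. Mmp13, a collagenase, had no counts in EM and 3.39 and 4.30 CPM in DM, at least 49.9-fold higher against a floor of 3 counts over both EM libraries (adjusted p = 0.00985). Calls in this list numbered 6, 6, 6 and 3 with the same 4 libraries left out in the same order. The fibroblast markers were near 0 in both media. The wider fibroblast list had summed levels of 105 and 157 CPM (EM) and 77.2 and 101 CPM (DM). Of its 5 tested members only the collagen Col6a2 was called, from 0.657 and 0.365 to 3.70 and 3.72 CPM (2.84 ± 0.62, adjusted p = 0.0464), and that call was lost without any 1 library. With the clone as block 3 of the 5 rose and 1 fell, and their log2 fold changes without it ran from -1.03 to 6.97. Col6a2 is expressed by cells other than fibroblasts too, and the part of such cells in the matrix genes was not tested.

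Contractile genes of myoepithelial cells rose for 3 of 9 tested members, with none lower past the test and a median of 1.82. Acta2, smooth muscle actin, stood at 0.202 and 1.15 CPM (EM) and 20.1 and 32.6 CPM (DM) (5.28 ± 1.12, adjusted p = 0.0362). Mylk, the kinase that switches on smooth muscle myosin, had 0 and 0.0522 CPM (EM) and 10.7 and 3.13 CPM (DM), a ratio of 273 with an exact 95% interval of 48.5 to 10809 (adjusted p = 0.0108). Tpm1, a tropomyosin of many cell types, went from 578 and 594 to 1592 and 1606 CPM (1.45 ± 0.16, adjusted p = 0.00599). The media do not overlap for any of the 3, while 2 defining markers, Myh11 and Cnn1, stayed at or below 0.657 CPM. The calls numbered 2, 2, 0 and 0 without DM of clone 1, DM of clone 2, EM of clone 1 and EM of clone 2. Rgs5, given above, was also higher in DM in both clones, though not called without the block, and a link to these genes was not tested.

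Chemokine, alarmin and NF-kB genes, which signal from epithelium to immune cells, rose for 10 of 30 and fell for none, with a median of 0.71. With the clone as block 14 rose and 2 fell. Tslp, an alarmin of barrier epithelia, went from 8.99 and 8.19 to 25.0 and 24.1 CPM (1.51 ± 0.14, adjusted p = 0.00389). Cxcl2, which attracts neutrophils, went from 11.4 and 13.7 to 42.6 and 48.0 CPM (1.86 ± 0.24, adjusted p = 0.00985). Csf1, the macrophage growth factor, went from 69.9 and 75.2 to 159.9 and 133 CPM (1.01 ± 0.12, adjusted p = 0.00694). Tnfaip3, an enzyme that restrains NF-kB and is itself induced by it, went from 82.4 and 94.3 to 199 and 204 CPM (1.19 ± 0.15, adjusted p = 0.00835). All 4 separate the media in both clones. The remaining calls were Cxcl16, Cxcl3, Cxcl5, Il1a, Lif and Csf2, and the list had 6, 4, 2 and 2 calls with the same 4 libraries left out in the same order. Leukocyte markers were under 1 CPM in both media, and none of 5 tested immune genes was called.

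Enzymes of retinoic acid synthesis were the only retinoid genes to pass the test, 2 of 13. Aldh1a3, which oxidises retinal to retinoic acid, stood at 154 and 117 CPM (EM) and 1669 and 1689 CPM (DM) (3.63 ± 0.34, adjusted p = 0.00412). Rdh10, which makes the retinal, went from 48.1 and 60.1 to 510.3 and 436 CPM (3.13 ± 0.32, adjusted p = 0.00459). Both media are far apart in both clones, but both calls were lost without EM of clone 2 (adjusted p = 0.0513). The list's median was -0.04, and Cyp26b1, which degrades retinoic acid, gave 0.77 ± 0.38, adjusted p = 0.268.

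Calls in both cell cycle lists were all falls. Of 25 genes of G2 and mitosis 12 fell and none rose, with a median of -2.06, and with the clone as block all 25 fell. Each of the 25 was lower in DM in both clones, as were 36.8% of all tested genes. Mki67, the proliferation marker Ki-67, stood at 97.8 and 129.7 CPM (EM) and 18.4 and 20.0 CPM (DM) (-2.56 ± 0.51, adjusted p = 0.0296). Cenpf, a centromere protein, went from 38.8 and 44.2 to 6.16 and 8.13 CPM (-2.54 ± 0.47, adjusted p = 0.0250), and Cdc20, an activator of the anaphase ubiquitin ligase, from 44.0 and 63.2 to 9.29 and 15.1 CPM (-2.13 ± 0.40, adjusted p = 0.0264). EM of clone 2 held the highest value of all 3. Of 25 genes of G1 and DNA replication 8 fell and none rose, with a median of -1.20, and with the block 17 fell. Mcm2, a subunit of the replicative helicase, went from 50.7 and 63.1 to 20.4 and 21.0 CPM (-1.46 ± 0.18, adjusted p = 0.00824), and Uhrf1, which keeps DNA methylation through replication, from 24.3 and 48.3 to 7.54 and 8.39 CPM (-2.19 ± 0.40, adjusted p = 0.0234). For both the DM values of the clones are level and the EM values are apart. None of the 25 mitotic genes passed without any 1 of the 4 libraries, and of the replication genes 4 passed without EM of clone 1 and none without each of the others. In bulk RNA fewer dividing cells and less RNA per cell cannot be told apart. The cyclin-dependent kinase inhibitor Cdkn1a, a target of p53, rose from 179 and 154 to 268 and 287 CPM (0.74 ± 0.11, adjusted p = 0.0149), a call that was lost without at least 1 library (adjusted p up to 0.116).

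Genes of ductal cells and ion transport fell for 6 of 22 and rose for none, with a median of -0.81, and with the clone as block 9 fell and 3 rose. Atp1b1, the beta subunit of the sodium pump, stood at 382 and 294 CPM (EM) and 113 and 56.8 CPM (DM) (-1.99 ± 0.30, adjusted p = 0.0147). Cftr, the chloride channel of ductal fluid secretion, went from 15.5 and 37.7 to 2.67 and 6.0 CPM (-2.62 ± 0.52, adjusted p = 0.0300). Both separate the media, and Cftr is higher in clone 2 in each medium. Scnn1a, the alpha subunit of the epithelial sodium channel (-1.80 ± 0.35, adjusted p = 0.0271), and the potassium channel Kcnj16 (-2.97 ± 0.64, adjusted p = 0.0366) fell too. The ductal keratin Krt7 stood at 2756 and 3062 CPM (EM) and 2802 and 3616 CPM (DM) (0.14 ± 0.18, adjusted p = 0.698), and Krt19 at 909 and 116 CPM and 720.2 and 118 CPM (-0.29 ± 1.14, adjusted p = 0.918), with clone 1 far above clone 2 in both media. The list's falls numbered 1, 1, 1 and 0 without DM of clone 1, DM of clone 2, EM of clone 1 and EM of clone 2.

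Of 21 tested secretory genes of the acinar machinery 3 rose and 3 fell. Of 18 tear proteins 1 rose and 1 fell, a share near the 8.35% called among all tested genes, and 12 of the 32 listed tear proteins had no counts in labelled KO clones. Aqp5, the apical water channel of acinar cells, stood at 1.06 and 1.51 CPM (EM) and 0.308 and 0.0531 CPM (DM) (-2.78 ± 0.58, adjusted p = 0.0351). This fall rests on 57 counts over the 4 libraries, and it missed the threshold when the 4 labelled KO libraries were fitted alone and when any 1 of them except DM of clone 1 was left out (adjusted p up to 0.165). Kcnn4, a calcium-activated potassium channel, went from 9.70 and 10.7 to 82.5 and 69.1 CPM (2.89 ± 0.29, adjusted p = 0.00459), and Itpr2, a calcium release channel, from 158 and 144 to 78.1 and 72.6 CPM (-1.004 ± 0.10, adjusted p = 0.00429). Wfdc2, a secreted whey acidic protein, fell from 2486 and 3000.2 to 452 and 712 CPM (-2.24 ± 0.24, adjusted p = 0.00542). Clu, the chaperone clusterin, rose from 741 and 872 to 4172 and 3383 CPM (2.23 ± 0.26, adjusted p = 0.00708). For each of these 4 DM stands clear of EM in both clones. Itpr3 (0.51 ± 0.10, adjusted p = 0.0280) and the granule regulator Rab27b (0.87 ± 0.18, adjusted p = 0.0341) rose, and Xbp1, a regulator of secretory cells, fell (-0.77 ± 0.17, adjusted p = 0.0364). Lpo, the peroxidase of tears, stood at 1.16 and 5.01 CPM and 1.80 and 5.21 CPM (0.18 ± 1.08, adjusted p = 0.948). Itpr2 passed with any 1 library left out, and the other calls were lost at least once. Without EM of clone 2 the 3 rises and 3 falls of the acinar machinery came to 0 and 1.

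Wnt pathway genes moved both ways, 2 up and 3 down of 23, and 5 up and 7 down with the clone as block. Axin2, a direct target and feedback inhibitor of Wnt signalling, stood at 60.9 and 68.8 CPM (EM) and 13.4 and 13.1 CPM (DM) (-2.29 ± 0.12, adjusted p = 0.00160). The clones are almost level in DM, and the fall passed with any 1 library left out. Rnf43, which removes Wnt receptors from the surface, went from 37.9 and 46.2 to 17.6 and 18.5 CPM (-1.22 ± 0.18, adjusted p = 0.0124), and the ligand Wnt10a from 68.7 and 89.9 to 47.4 and 54.7 CPM (-0.63 ± 0.15, adjusted p = 0.0458). The ligand Wnt7b rose from 141 and 130.5 to 234 and 215 CPM (0.72 ± 0.10, adjusted p = 0.0107), and Lgr6, given above, was the other rise. Among 16 Notch genes the ligand Jag1 rose from 121 and 111 to 309.7 and 345 CPM (1.49 ± 0.11, adjusted p = 0.00226) and the ligand Jag2 fell from 123 and 149 to 70.5 and 80.1 CPM (-0.85 ± 0.13, adjusted p = 0.0154). Notch2 rose (0.49 ± 0.11, adjusted p = 0.0447), Rfng fell (-0.95 ± 0.20, adjusted p = 0.0350), and the target Hes1 did not pass (0.31 ± 0.12, adjusted p = 0.164). BMP targets gave 2 rises of 15, Smad7 and the activin-binding protein Fst (2.40 ± 0.48, adjusted p = 0.0300), and Id1, their classical readout, gave 1.61 ± 0.54, adjusted p = 0.120 and adjusted p = 0.0149 with the block. With 1 of the 4 libraries left out, Axin2, Lgr6 and Jag1 passed each time, and the other calls here were lost at least once (adjusted p up to 0.238).

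Basal cell genes gave 4 rises and 2 falls of 21. The basal keratin Krt5 stood at 4206 and 5325 CPM (EM) and 3074 and 4924 CPM (DM) (-0.25 ± 0.28, adjusted p = 0.652), and the groups overlap. Krt14 went from 1039 and 1793 to 1964 and 2761 CPM (0.74 ± 0.28, adjusted p = 0.161, and adjusted p = 0.0163 with the block). Clone 2 was the higher in both media for both keratins. The other defining basal markers, Krt15 and Trp63, were lower in DM in each clone, as were 36.8% of all tested genes. Krt15 stood at 190 and 579 CPM (EM) and 20.6 and 254 CPM (DM), where the groups overlap. Trp63 stood at 235 and 277 CPM (EM) and 196 and 215 CPM (DM). Sox9 (0.70 ± 0.12, adjusted p = 0.0210) rose, and Dlk2 (-2.99 ± 0.60, adjusted p = 0.0314) and Jag2 fell. Stratified and cornified genes gave 1 rise and 1 fall of 21 (9.52%), a share near the 8.35% called among all tested genes, and 6 rises and 1 fall with the block. Without the block the rise was Pkp1, a desmosome protein (0.80 ± 0.14, adjusted p = 0.0210), and the fall Ivl, the envelope protein involucrin (-1.23 ± 0.30, adjusted p = 0.0498). Among 29 genes of corneal and conjunctival epithelium and eye transcription factors 2 rose and 3 fell. Elf3 (-1.07 ± 0.23, adjusted p = 0.0362) and Sox2 were among the falls, the latter from 10.3 and 7.67 to 1.54 and 3.77 CPM (-1.76 ± 0.40, adjusted p = 0.0429). The rises were Sox9 and Runx1 (0.84 ± 0.18, adjusted p = 0.0375). Epcam, an epithelial adhesion protein and the only call among 15 epithelial identity genes, rose from 779.6 and 715 to 1491 and 1408 CPM (0.96 ± 0.16, adjusted p = 0.0206). The share called in that list, 6.67%, is under the 8.35% of all tested genes. Lama3 and Lgr6, given above, were also among the basal rises. Apart from that of Lgr6, every call in this paragraph was lost when 1 of the 4 libraries was left out (adjusted p up to 0.210).

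The 2 clones moved together across genes. Over 9622 genes of at least 10 CPM in a library, 816 had a log2 ratio of at least 1 in size in clone 1, and 804 of them moved the same way in clone 2, 608 also by at least 1. The log2 ratios of the clones correlated at r = 0.740 (Spearman 0.627) over all 14282 genes and at 0.872 over the 9622. Genes within a library are not independent and each value rests on 1 library per clone and medium, so this is a description. Only Clca3a2, Hp and Psca moved by at least 1 in opposite directions. Hp, the haptoglobin gene, stood at 13.7 and 23.2 CPM in EM of clones 1 and 2 and 28.2 and 5.95 CPM in DM. Psca, a surface antigen of mucosal epithelia, stood at 37.9 and 31.5 CPM (EM) and 18.6 and 93.9 CPM (DM), so that DM lies below EM in clone 1 and above it in clone 2. Clca3a2 stood at 16.4 and 51.2 CPM and 36.0 and 23.7 CPM. Krt13, a keratin of non-cornified mucosa, stood at 23.5 and 36.4 CPM (EM) and 1.28 and 21.2 CPM (DM), a log2 ratio of DM to EM of -4.14 and -0.78 in clones 1 and 2. The integrin subunit Itgam had ratios of -2.44 and 0.25, and Cyp4b1, a cytochrome P450, had 2.12 and 5.48. P2rx2, a channel gated by ATP, had no counts in EM and 1.69 and 10.5 CPM in DM, at least 78.3-fold higher over both clones. On the side of clone 1, Sspn had ratios of 4.73 and 2.21 and Mylk of 7.76 and 4.96.

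**Figure D3:**
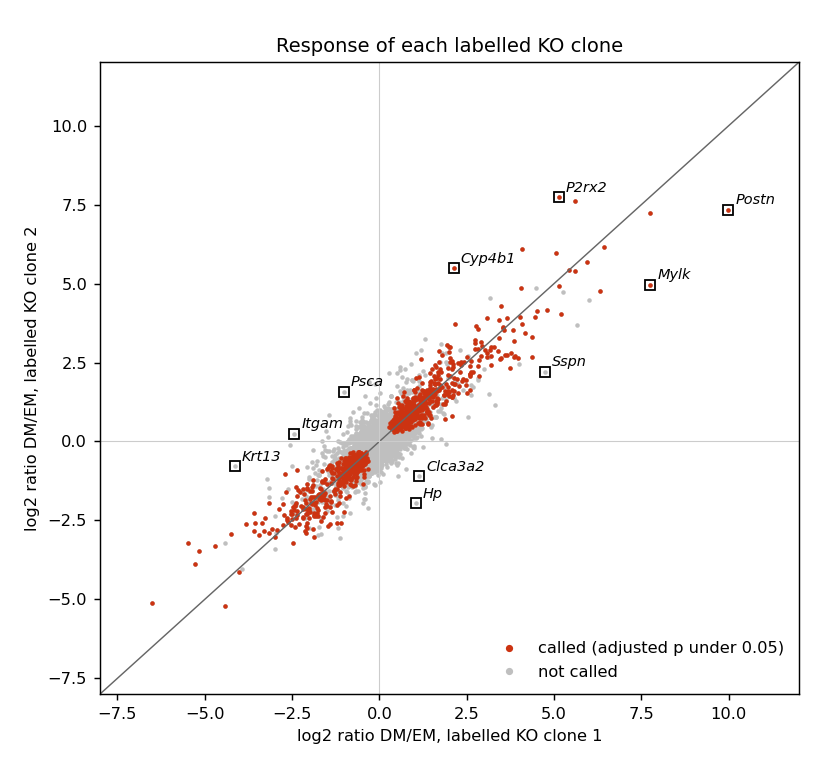
Log2 ratio of DM to EM in labelled KO clone 1 (horizontal) and clone 2 (vertical) for 9622 genes of at least 10 CPM in a library, with called genes in red and the 10 genes that differ most between the clones boxed and named. Points follow the diagonal (r = 0.872), and Hp, Clca3a2 and Psca lie in the quadrants of opposite sign.

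The same medium change was called for more genes in WT clones, where 1372 rose (9.61%) and 875 fell (6.13%), or 2122 (14.9%) and 1528 (10.7%) with the clone as block, and in uncloned organoids, where 2352 rose (17.2%) and 1806 fell (13.2%) of 13713. The order of the clones depends on the fit. When the libraries of each label were fitted alone, labelled KO clones gave 977 rises and 702 falls and WT clones gave fewer of each, as listed further below. Of the 706 rises in labelled KO clones 581 were called up in WT clones (82.3% of the former, 42.3% of the latter), and of the 487 falls 290 were called down (59.5% and 33.1%). Uncloned organoids were counted in another table, with n = 3, so their values are set beside the clones without a test. Among the 677 labelled KO rises that both count sets tested, 580 were called up there (85.7% of the former, 26.0% of 2229), and of 470 falls 291 were called down (61.9% and 16.7% of 1740). Cell cycle genes differed in count: of 25 mitotic genes 12 fell in labelled KO clones, 5 in WT clones and 1 in uncloned organoids, with medians of -2.06, -1.34 and -0.56. The difference between labelled KO and WT was tested gene by gene, and none of the 25 passed with or without the clone as block. Mki67 gave a difference of -0.55 ± 0.32, adjusted p = 0.556 with the block.

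**Figure D4:**
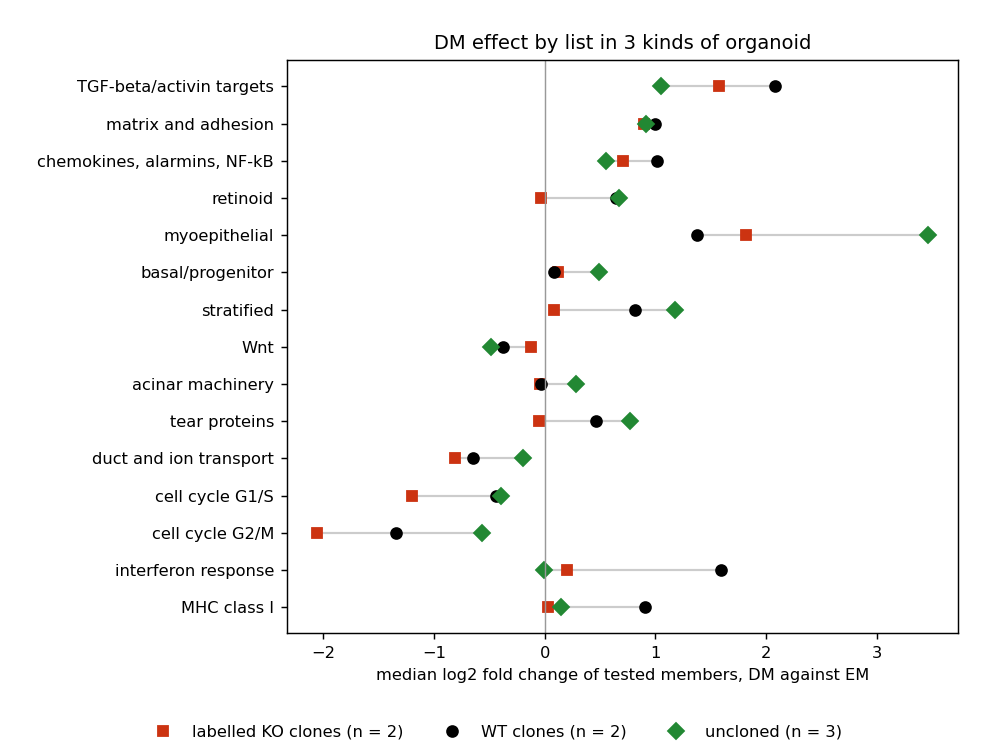
Median log2 fold change of DM against EM over the tested members of 15 gene lists in labelled KO clones (red squares), WT clones (black circles) and uncloned organoids (green diamonds). Medians of the interferon list were 0.20, 1.59 and 0.00, and those of the G2/M list -2.06, -1.34 and -0.56.

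Whether the medium effect differed between labelled KO and WT clones was tested as an interaction, labelled KO minus WT. Without a block edgeR called no gene (smallest adjusted p = 0.211), 1126 genes had an unadjusted p under 0.05, and DESeq2 called 39 higher (0.273%) and 156 lower (1.09%). With the clone as block 70 genes were called (0.49%), 6 with a higher (0.042%) and 64 with a lower response (0.448%) in labelled KO. For 54 of the 64, both labelled KO libraries in EM stood above both WT libraries in EM, as they did for 31.1% of all tested genes, and the EM values enter the difference itself. Values in the next sentences are that difference with the block. Ccl5, a chemokine for T cells, stood at 88.8 and 68.9 CPM (EM) and 115 and 124 CPM (DM) of labelled KO clones, against 9.37 and 5.81 and 141 and 76.9 CPM in WT (-3.22 ± 0.20, adjusted p = 0.00472). Sox7, a transcription factor, stood at 41.2 and 58.0 and 39.5 and 60.7 CPM against 3.70 and 6.10 and 23.7 and 44.6 CPM (-2.78 ± 0.17, adjusted p = 0.00472). Itga2, a collagen-binding integrin subunit, stood at 104 and 87.4 and 222 and 243 CPM against 17.6 and 10.8 and 396 and 198 CPM (-3.07 ± 0.19, adjusted p = 0.00472). All 3 stood higher in labelled KO than in WT in EM, and all 3 rose in WT. Tmprss4, a membrane protease, was the reverse case among the 6 with the smallest p: it fell in labelled KO, from 106 and 155 to 27.1 and 46.4 CPM, and stood level in WT at 137 and 137 and 134 and 147 CPM (-1.88 ± 0.15, adjusted p = 0.0102). The other 2 were 1500009C09Rik (-4.09 ± 0.30, adjusted p = 0.00904) and Palmd (-2.93 ± 0.23, adjusted p = 0.0102).

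Aqp5 was lower in DM in labelled KO clones and higher in DM in WT clones, where it went from 4.46 and 3.61 to 20.9 and 29.6 CPM (2.64 ± 0.42, adjusted p = 0.00970), and in uncloned organoids (3.53 ± 0.14, adjusted p = 4.88e-07). The difference between labelled KO and WT was -5.39 ± 0.71, adjusted p = 0.0373 with the block. Without it edgeR missed the threshold (adjusted p = 0.227) and DESeq2 passed (adjusted p = 9.25e-09). Inhba and Pmepa1 rose in both kinds of clone, by a smaller fold in labelled KO. Inhba went from 8.88 and 10.3 to 499 and 339.8 CPM in WT (5.45 ± 0.23, adjusted p = 3.90e-04), a difference of -2.56 ± 0.26, adjusted p = 0.0255. Pmepa1 went from 11.3 and 13.6 to 251 and 356 CPM (4.61 ± 0.29, adjusted p = 8.64e-04), a difference of -2.31 ± 0.19, adjusted p = 0.0107. For both genes labelled KO clones were already higher in EM. Their levels in DM, 761 and 751 CPM for Inhba and 432 and 359 CPM for Pmepa1, were not below those of WT clones. Axin2 fell in all 3 kinds of organoid, with -1.17 ± 0.12, adjusted p = 0.00250 in WT, -3.10 ± 0.18, adjusted p = 2.50e-06 in uncloned organoids and a difference between labelled KO and WT that did not pass in edgeR with the block (-1.13 ± 0.18, adjusted p = 0.0530) and passed in DESeq2 without it (adjusted p = 6.28e-04).

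Interferon response genes showed the clearest contrast in counts: none of 30 was called in labelled KO clones, against 24 rises in WT clones and 2 rises and 1 fall in uncloned organoids. With the clone as block 1 rose and 1 fell in labelled KO. Isg15, a ubiquitin-like protein induced by interferon, stood at 431 and 506 CPM (EM) and 476 and 673 CPM (DM) of labelled KO clones (0.30 ± 0.40, adjusted p = 0.718). In WT clones it went from 121 and 46.3 to 359 and 312 CPM (2.01 ± 0.42, adjusted p = 0.0217). In EM both labelled KO libraries stood above both WT libraries for all 30 genes, against 31.1% of all tested genes. Summed over the 30, EM levels were 12182 and 12140.3 CPM in labelled KO clones and 3493 and 2075 CPM in WT clones. The difference between labelled KO and WT was negative for 29 of 30 with the block (52.1% of all tested genes were negative), and 3 passed, named here after their values were seen. They are the antiviral enzyme Rsad2 (-2.82 ± 0.31, adjusted p = 0.0255), Ifi44 (-1.69 ± 0.19, adjusted p = 0.0255) and the signal transducer Stat2 (-1.15 ± 0.16, adjusted p = 0.0435). None of the 30 passed in edgeR without the block (adjusted p = 0.243 at the least), and Isg15 gave -1.88 ± 0.36, adjusted p = 0.0810 with it. MHC class I genes, which present peptides to T cells, gave no call of 14 in labelled KO clones and 4 rises in WT, and all 14 stood higher in EM of both labelled KO clones than of both WT clones. None of the 14 was called in uncloned organoids, and with the block 1 rose in labelled KO clones. The difference between labelled KO and WT passed in edgeR for none of the 14 with the block or without it (adjusted p = 0.371 at the least without it).

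**Figure D5:**
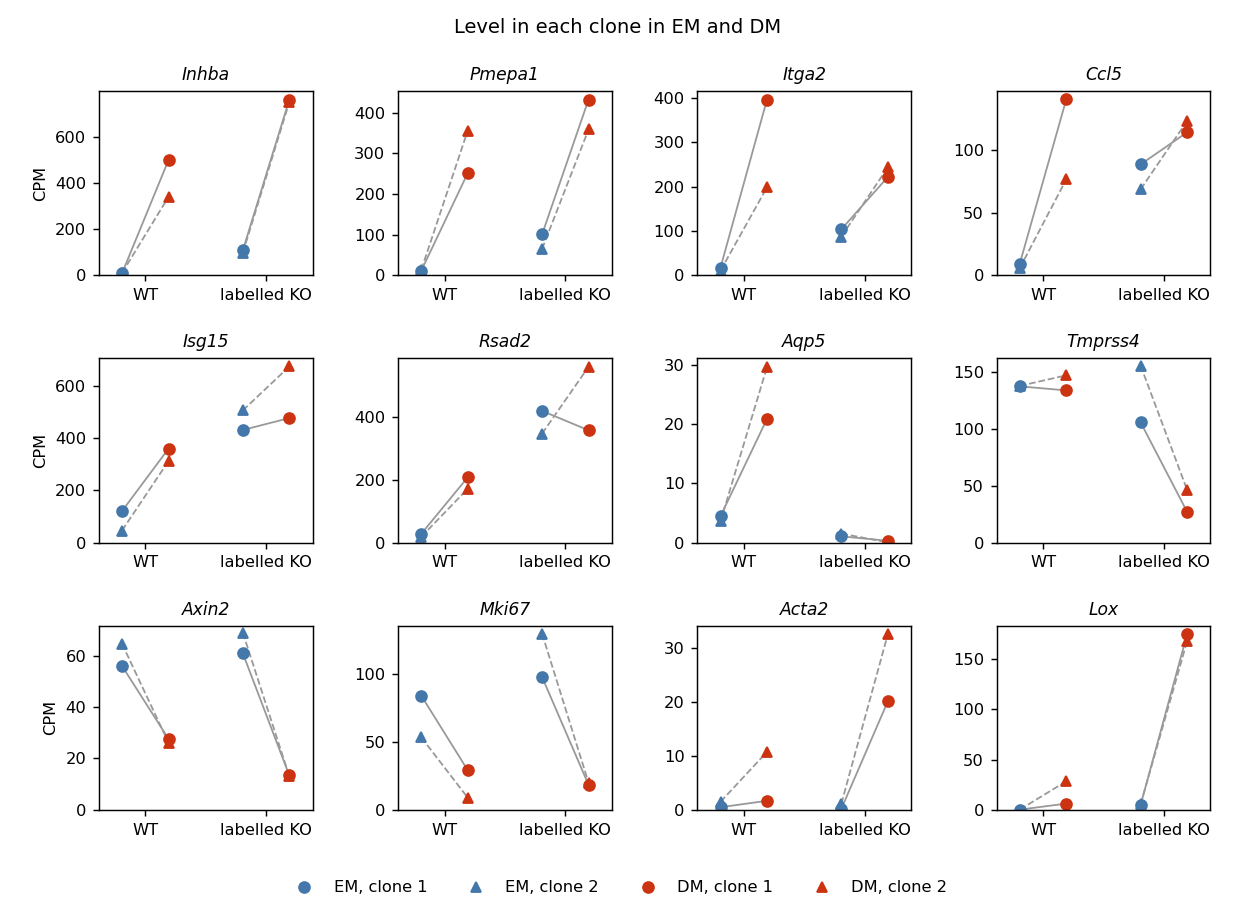
CPM (linear axis from 0) of 12 genes in the 8 clone libraries, with lines joining EM (blue) and DM (red) of the same clone, circles and solid lines clone 1, triangles and dashed lines clone 2. Isg15, Rsad2 and Ccl5 start high in EM of labelled KO clones, and Aqp5 lies at or below 1.51 CPM in all 4 labelled KO libraries.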

How the data were processed

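Deposited counts per gene, whole numbers made by the authors with STAR and featureCounts on GRCm38 per the submitters' processing notes, were analysed. The sources used here do not give versions, settings or annotation release. Libraries came from a stranded polyadenylated RNA kit per the labels' protocols. Of 55487 gene IDs for the clones, 55227 matched GENCODE M21 (GRCm38), with 0.00821% of counts on the others. Promoters are RefSeq's (GRCm38.p6).

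The 8 clone libraries were fitted with a mean per group in edgeR 4.0.16 (R 4.3.3), by the quasi-likelihood method, after filterByExpr and trimmed-mean scaling, with 4 residual degrees of freedom and a biological coefficient of variation of 0.234. CPM use the scaled library sizes. The SE is the size of the log2 fold change over the square root of F. Uncloned organoids were fitted in their own table. The ratios of single clones use a prior count of 1. Intervals and floors of 3 counts cover counting error only.

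The labels give the same clone in both media, so the clone was also fitted as a replicate block, with 2 residual degrees of freedom. Checked on the data, the deviations of EM and DM libraries from their group means correlated at 0.507 in labelled KO clones and 0.603 in WT clones, single values with 2 clones. No library repeated another within sampling noise.

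The comparison, gene lists and naming rule were chosen with earlier results of these data known. The rule took Pax6, then the 10 largest rises and falls among called genes without overlap between media and a mean of at least 10 CPM in one, without unnamed genes. It added, for each list, up to 6 called members by smallest p, defining members, the 6 smallest p of the interaction with the block, and the 5 genes with the largest difference between clones in each direction. Members beyond it are named as list members only. Some genes that the rule names are not reported here. Motifs were counted in promoters by exact match. Alternatives were DESeq2 1.42.0, its size factors, total-count scaling, no filter, fewer libraries, the block, each library left out, and for the clones' ratios a prior count of 5 or a minimum of 10 CPM. On counts simulated for the labelled KO comparison over 13984 genes, 36.0% of genes changed 2-fold and 83.0% of those changed 4-fold were called, with 0.0798% of unchanged genes. In number these were 36 and 83 of 100 genes each, beside 11 of 13784 unchanged genes. Counts were drawn without a clone effect and with far fewer changed genes than were called in the data. The shares may therefore not carry over.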

Additional observations from a re-analysis of the deposited data

Results flagged for a closer look

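For each gene below the medium effect differed between labelled KO and WT clones by the interaction test, labelled KO minus WT, with the clone as block (edgeR, adjusted p under 0.05), among the genes named in the text. Without the block none passed in edgeR, where adjusted p ran from 0.211 to 0.327, and all of them passed in DESeq2, with adjusted p from 2.71e-15 (Inhba) to 6.28e-04 (Tmprss4).

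Aqp5 moved in opposite directions, at -5.39 (log2, adjusted p = 0.0373). Its fall in labelled KO rests on 57 counts and missed the threshold when those libraries were fitted alone. Inhba (-2.56, adjusted p = 0.0255) and Pmepa1 (-2.31, adjusted p = 0.0107), genes of the TGF-beta pathway, rose in both and by a smaller fold in labelled KO. Akr1b8, an aldo-keto reductase, went from 36.9 and 30.1 to 93.7 and 84.6 CPM in labelled KO and from 4.73 and 5.96 to 76.9 and 48.6 CPM in WT (-2.11, adjusted p = 0.0425). Palmd (-2.93) and 1500009C09Rik (-4.09) also rose in both. Palmd stood at 33.7 and 35.5 CPM in EM of labelled KO against 0.312 and 0.985 CPM in WT, and 1500009C09Rik at 5.25 and 5.63 against 0.268 and 0.0938 CPM.

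Ccl5 (-3.22), Sox7 (-2.78) and Itga2 (-3.07) rose in WT clones and did not pass in labelled KO clones without the block, while with it Ccl5 and Itga2 passed (adjusted p = 0.0240 and 0.00164). Tmprss4 (-1.88) and Wfdc2 (-1.66, adjusted p = 0.0425) fell in labelled KO clones. In WT clones neither passed without the block, and with it Wfdc2 fell too (-0.61, adjusted p = 0.0343). There Wfdc2 stood at 1314 and 1154 CPM (EM) and 759.7 and 857 CPM (DM).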

How the results depend on the processing

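In labelled KO clones the main counts of 706 rises and 487 falls became 1134 and 839 with DESeq2, 1451 and 1121 without the filter on low counts, and 1321 and 1017 with the clone as replicate block. Leaving out 1 library gave 62 to 208 rises and 20 to 76 falls. DESeq2's size factors (728 and 463) and total-count scaling (632 and 544) moved them less, as did a fit of the 4 libraries alone for rises and falls (977 and 702). The 1193 calls kept their direction in each of these fits that tested them. In WT clones rises and falls came to 2110 and 1387 without the filter, 662 and 262 when only those libraries were fitted, 2122 and 1528 with the block, and 582 to 1199 and 207 to 757 with 1 library left out. The interaction gave 39 higher and 156 lower with DESeq2, 154 and 503 without the filter, 6 and 64 with the block, and 0 to 8 and 0 to 6 with 1 library left out, where only the fit without DM of WT clone 2 gave 8 and 6. Uncloned organoids gave 1767 to 2780 rises and 1039 to 2581 falls with 1 line's library left out. The clones' correlation was 0.872 over genes of at least 10 CPM and 0.778 with a prior count of 5. The cause of these shifts was not tested. A left-out library leaves an arm with 1 sample, assumed to vary like the other groups. Genes with few counts, such as Aqp5, Mmp13 and Postn, are limited by depth.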

Other observations

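Insulin-like growth factor genes fell for 3 of 11 in labelled KO clones and rose for none, and 3 rose with the clone as block. Igfbp5, a secreted binding protein, stood at 1022 and 944 CPM (EM) and 298 and 219 CPM (DM) (-1.93 ± 0.27, adjusted p = 0.0121). The receptors Igf2r (-0.93 ± 0.12, adjusted p = 0.00980) and Insr (-0.53 ± 0.11, adjusted p = 0.0356) fell as well. Of 29 growth factor and MAPK genes 3 rose and 2 fell, and with the block 8 rose and 3 fell. Tgfa, a ligand of the EGF receptor, rose from 34.6 and 34.6 to 53.6 and 57.0 CPM (0.68 ± 0.12, adjusted p = 0.0209), and Lrig1, which restrains that receptor, fell from 252 and 266 to 127 and 113 CPM (-1.11 ± 0.25, adjusted p = 0.0429). Fgfr3 fell too (-2.09 ± 0.49, adjusted p = 0.0461), the phosphatase Dusp4 rose (1.01 ± 0.24, adjusted p = 0.0465), and Il1rl1, the IL-33 receptor, had no counts in EM and 2.93 and 3.51 CPM in DM, at least 41.7-fold higher. Dusp6, a direct readout of ERK signalling, did not pass (0.07 ± 0.13, adjusted p = 0.799). Immediate early and AP-1 genes rose for 4 of 21, among them Klf6 (1.10 ± 0.13, adjusted p = 0.00719) and Jun (0.62 ± 0.13, adjusted p = 0.0347), and Egr1 fell (-0.72 ± 0.17, adjusted p = 0.0497). Each call in this paragraph was lost when 1 of the 4 libraries was left out (adjusted p up to 0.223).

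Shares called were 6.25% for cholesterol and fatty acid genes, 3.57% for glycolysis and 3.85% for oxidative phosphorylation, against 8.35% of all tested genes. They were 11.1% for protein folding, 17.4% for antioxidant genes and 28.6% for p53 targets. Cholesterol and fatty acid genes fell for 2 of 32, Elovl6 (-1.10 ± 0.19, adjusted p = 0.0202) and Fasn (-0.60 ± 0.14, adjusted p = 0.0484). Of 28 glycolysis genes Pfkp fell (-0.86 ± 0.17, adjusted p = 0.0294). Of 26 genes of oxidative phosphorylation Cyc1 fell (-0.51 ± 0.09, adjusted p = 0.0216), where 13 fell in WT clones and 3 in uncloned organoids. The difference between labelled KO and WT passed in edgeR for none of the 26 with or without the clone as block. In both labelled KO clones 20 of the 26 were lower in DM, as were 36.8% of all tested genes. Genes of protein folding in the endoplasmic reticulum fell for 3 of 27, Atf6 (-0.60 ± 0.09, adjusted p = 0.0149), Ddit3 (-0.89 ± 0.17, adjusted p = 0.0267) and Xbp1. Of 23 antioxidant genes 2 rose and 2 fell, the rises being Gsr (0.72 ± 0.15, adjusted p = 0.0337) and Akr1b8 (1.41 ± 0.23, adjusted p = 0.0184). Targets of p53 rose for 4 of 21 and fell for 2, with Mdm2, Perp, Pmaip1 and Cdkn1a up and Gdf15 and Sesn1 down. Gdf15, a stress cytokine, stood at 12.1 and 18.5 CPM (EM) and 3.28 and 3.83 CPM (DM) (-2.10 ± 0.41, adjusted p = 0.0276). Of 15 mucin and goblet cell genes 1 fell (6.67%), and with the block 2 rose and 6 fell. The fall was Muc13, a membrane mucin, from 136 and 143 to 15.1 and 37.4 CPM (-2.41 ± 0.46, adjusted p = 0.0276). Of 5 tested nerve, fat and muscle genes Acta1 rose, from 2 counts in EM to 2.46 and 4.25 CPM in DM (a ratio of 65.1, exact 95% interval 17.7 to 543, adjusted p = 0.00736). Calls in this paragraph were likewise lost with at least 1 library left out (adjusted p up to 0.237).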
